A study of Homo sapiens with 6 samples.

Results

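The 10 genes described here belong to the BCL2 family and were taken by gene symbol from a table of 19655 genes. They comprise 5 guardians (BCL2, BCL2L1, BCL2L2, MCL1 and BCL2A1), the effector BAK1 and 4 BH3-only genes (BCL2L11, PMAIP1, BIK and BMF). Each of the 10 symbols has a row in the table. RNA was sequenced from cells labelled HCT116, an established colon cancer cell line. There were 3 control libraries (NC) and 3 libraries of cells transfected with an antisense oligonucleotide against the small nucleolar RNA SNORA67 (ASO). The genotype labels read control for NC and SNORA67 knockdown for ASO, both arms were grown in DMEM with foetal bovine serum, and no other allele or agent is named. How the NC cells were treated, how much oligonucleotide was used and when cells were collected are not stated in the labels. The labels also do not say whether replicates were separate cultures. The spread that the p-values rest on is thus that of these 6 libraries and could be technical.

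Proteins of this family decide whether the outer mitochondrial membrane is opened during apoptosis. Guardians hold the membrane closed by binding the effectors BAK and BAX and by capturing BH3-only proteins, the sensors that carry stress signals to the membrane. When BH3-only proteins fill the guardians, BAK and BAX assemble into pores, cytochrome c leaves the mitochondrion and caspases are activated. Guardians differ in their partners, and NOXA, the product of PMAIP1, binds chiefly MCL-1, while BIM, the product of BCL2L11, binds all guardians. Colon cancer cells are known to lean on BCL-XL, the product of BCL2L1, and on MCL-1. Levels of RNA say nothing direct about these proteins, and MCL-1 and NOXA are both known for rapid turnover.

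Column totals of the estimated counts, in units of 1e6, ran from 49.1 to 54.9. The most frequent count above 0 was 4 in every library. If 4 counts stand for 1 sequenced fragment, the depth was 12.3 to 13.7 in the same units of fragments, and 12 counts (3 fragments) were taken as the smallest detectable amount. Genes with a count above 0 numbered 13934 to 13995 in NC libraries and 15452 to 15665 in ASO libraries. The part of this difference in the levels of genes near 0 was not tested. SNORA67 itself was not analysed here. Its host gene EIF4A1 was at 1544 ± 55.3 CPM in NC against 617 ± 46.3 CPM in ASO (SD, n = 3). The log2 fold change of EIF4A1 was -1.32, and it passed as lower in all 15 alternative analyses listed below. Effects of SNORA67 and of EIF4A1 on the genes described here cannot be told apart. CPM are counts scaled to a library total of 1e6 after correction of library sizes by TMM, the trimmed mean of M values. Of 10 markers of colon epithelium, 6 averaged under 1 CPM in NC and 3 in ASO, with CDH17 at 0 counts in all 3 NC libraries. EPCAM and CDH1 averaged 4.37 and 1.06 CPM in NC, while KRT8 and KRT18 were abundant. Apart from KRT8 and KRT18, these markers were low or near 0 in NC and do not bear out the label. The identity of the line thus rests on the labels alone. Of the 9 colon markers tested, LGALS4, VIL1 and KRT19 rose, 0 fell and 6 did not pass. LGALS4, VIL1 and KRT19 averaged 0.0066, 0.067 and 0.0503 CPM in NC and 18.05, 8.88 and 1.66 CPM in ASO. The call of VIL1 was lost in limma-voom (adjusted p = 0.111) and with a replicate block (edgeR adjusted p = 0.0714). Leukocyte markers summed to 2.73 to 4.12 CPM in NC and 13.4 to 15.2 in ASO, with 3 of 9 (PTPRC, CD3E and FCGR3A) at 0 in all 6 libraries. Fibroblast markers summed to 243 to 297 in NC and 372 to 456 in ASO with 0 of 6 at 0 throughout. COL1A1 made up the largest part of that sum, at a mean of 160 CPM in NC and 374 CPM in ASO. PDGFRB came next, at a mean of 101 CPM in NC and 41.0 CPM in ASO. Of the 5 fibroblast markers tested, COL1A1 and COL3A1 rose and LUM, DCN and PDGFRB fell, and the median log2 fold change was -0.93. Endothelial markers summed to 9.59 to 10.7 and 14.5 to 19.6 with 1 of 4 (KDR) at 0. Of the 3 endothelial markers tested, PECAM1 rose 1.70-fold (edgeR adjusted p = 0.00715), 0 fell and 2 did not pass. The part of these shifts in the results below was not tested. In bulk RNA, a change in the make-up of the cells and a change in RNA per cell cannot be told apart.

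Guardians, the effector and BH3-only genes each had members that rose in ASO. Of the 10 members, 7 rose, 0 fell, BCL2L2 and BMF did not pass the test and BCL2A1 was too low to be tested. The test was the quasi-likelihood test of edgeR with p-values adjusted over 14062 genes by the Benjamini-Hochberg method and a threshold of 0.05. Over all genes tested, 26.8% passed as higher and 19.1% as lower, 46% in all, so changes were common in these libraries. None of the members was lower at an unadjusted p under 0.05 in edgeR either (0 genes), and DESeq2 and limma-voom each called 0 lower. The median log2 fold change of the 9 members tested was 1.09, against 0.01 for all genes tested. In 8 members every ASO library lay above every NC library, and in 0 members below, where 31.6% and 25.9% of all genes tested did so. The members and the lists below were chosen with earlier results of these data known, so their contrasts with all genes are descriptions. Intervals of fold changes cover 95%.

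**Figure D1:**
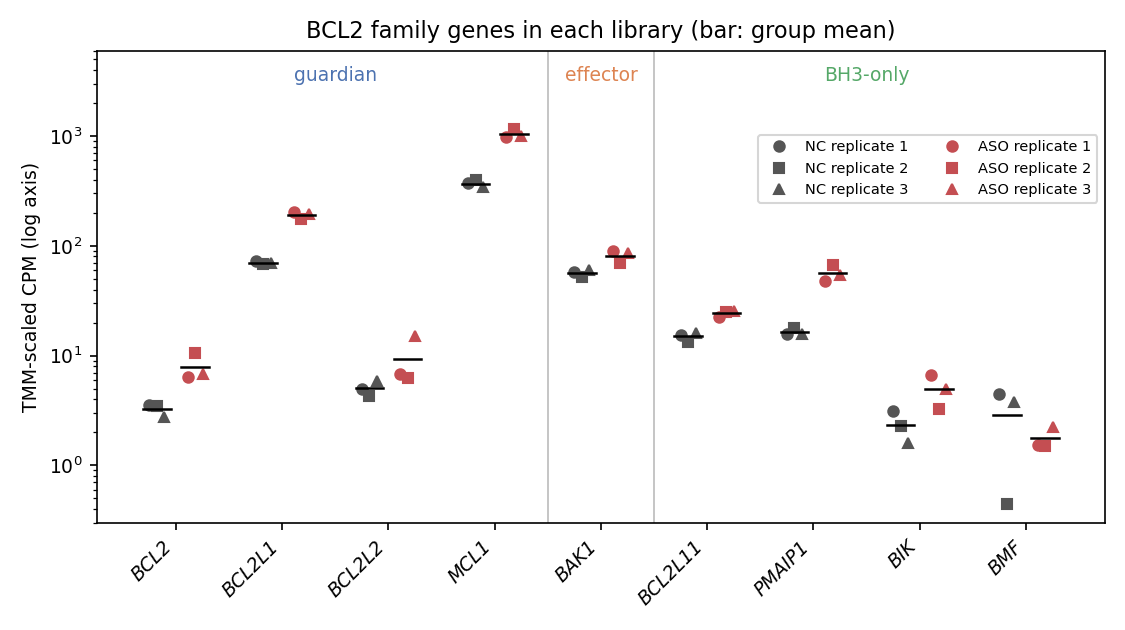
Levels of 9 BCL2 family genes in each library, in TMM-scaled CPM on a log axis, with grey symbols for NC, red symbols for ASO and a bar at each group mean. ASO lies above NC without overlap for 8 of the 9 genes, and BMF is the one that overlaps, with NC replicate 2 at 0.441 CPM. BCL2A1 is left out because no library reached 12 counts.

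Among the guardians, MCL1 (chr1:150563102-150579738, minus strand), a short-lived guardian that restrains BAK, had the highest level. NC libraries held 372, 394 and 340.3 CPM, and ASO libraries 983, 1166 and 999.9 CPM. The groups lay far apart. The rise was 2.85-fold (interval 2.44 to 3.32, edgeR adjusted p = 1.98e-05). BCL2L1 (chr20:31664452-31723989, minus strand) encodes BCL-XL, or the death-promoting BCL-XS when spliced otherwise. Its NC levels were 72.7, 68.0 and 69.6 CPM, and its ASO levels 203, 175 and 194 CPM. Both groups were tight and did not overlap, and the rise was 2.72-fold (interval 2.35 to 3.15, edgeR adjusted p = 1.89e-05). Counts per gene do not separate the splice forms of MCL1, BCL2L1 or BCL2L11.

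BCL2 (chr18:63123346-63320128, minus strand), the founding guardian of the family, was expressed at a far lower level. NC libraries had 3.57, 3.45 and 2.73 CPM, compared with 6.43, 10.4 and 6.76 CPM in ASO. ASO replicate 2 was the highest library, and all 3 ASO libraries were above all 3 NC libraries. The fitted rise was 2.42-fold (interval 1.62 to 3.62, edgeR adjusted p = 0.00477). BCL2L2 (chr14:23298790-23311751, plus strand), which encodes BCL-W, had NC levels of 4.93, 4.24 and 5.88 CPM and ASO levels of 6.76, 6.18 and 14.9 CPM. The groups did not overlap, but ASO replicate 3 stood well above the other ASO libraries, and the fold of 1.85 (interval 1.05 to 3.26) did not pass (edgeR adjusted p = 0.0716). Without ASO replicate 3 the log2 fold change went from 0.89 to 0.365 (edgeR adjusted p = 0.257). BCL2L2 passed without ASO replicate 2 (adjusted p = 0.0293) and in DESeq2 (adjusted p = 0.0302), and did not in limma-voom (adjusted p = 0.111). BCL2L2 overlaps the read-through gene BCL2L2-PABPN1 on the same strand, which was at 19.6 to 33.4 CPM in NC and 25.0 to 31.2 CPM in ASO, so reads could have been split between them. HOMEZ (3.10 to 23.4 CPM) and PPP1R3E (4.51 to 10.95 CPM) overlap BCL2L2 on the opposite strand, and the strand setting was not stated.

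BCL2A1 (chr15:79960892-79971196, minus strand), a guardian best known from blood cells and as a target of NF-kB, was not detectable at this depth. Its counts were 0, 0 and 0 in NC and 0, 4 and 5 in ASO, all under the limit of 12. No fold is given for it. Counts of 0 in NC allow levels of up to 0.22 to 0.238 CPM, and these limits cover counting error only.

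BAK1 (chr6:33572547-33580293, minus strand), the effector that MCL-1 and BCL-XL hold in check, was at 57.8, 52.0 and 60.1 CPM in NC and 89.3, 69.1 and 86.3 CPM in ASO. The groups did not overlap, with ASO replicate 2 the closest to NC. The rise of 1.44-fold (interval 1.18 to 1.76, edgeR adjusted p = 0.0108) had an interval that lay below those of MCL1 and BCL2L1. BAX, the other main effector and not among the 10, was at 69.1, 58.6 and 63.4 CPM in NC and 72.4, 55.4 and 75.1 CPM in ASO. These groups overlapped, and the ASO level was 1.06 times that of NC on the fitted scale (log2 interval -0.23 to 0.41, edgeR adjusted p = 0.637). The difference between the changes of BAK1 and BAX was not tested.

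Among the BH3-only genes, PMAIP1 (chr18:59899996-59904305, plus strand), which encodes NOXA, had the largest fitted rise of the members tested. It was at 15.8, 17.7 and 15.6 CPM in NC and 47.6, 67.0 and 54.4 CPM in ASO. Every ASO library was far above every NC library, and the rise was 3.44-fold (interval 2.70 to 4.39, edgeR adjusted p = 8.38e-05). BCL2L11 (chr2:111119378-111168445, plus strand), which encodes BIM, was at 15.6, 13.4 and 16.1 CPM in NC and 22.6, 25.2 and 25.4 CPM in ASO. Its groups were tight and apart, and the rise was 1.63-fold (interval 1.31 to 2.02, edgeR adjusted p = 0.00438). ACOXL, which overlaps BCL2L11 on the same strand, was at 0.2 to 1.04 CPM over the 6 libraries.

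BIK (chr22:43110750-43129712, plus strand), a BH3-only protein of the endoplasmic reticulum, was at 3.13, 2.28 and 1.58 CPM in NC and 6.67, 3.26 and 4.96 CPM in ASO. The highest NC library lay just under the lowest ASO library. The rise of 2.13-fold (interval 1.21 to 3.73) passed with an edgeR adjusted p of 0.0353. The call was lost without NC replicate 2 (adjusted p = 0.0878), NC replicate 3 (0.0986), ASO replicate 1 (0.117) or ASO replicate 3 (0.0862). BMF (chr15:40087890-40108892, minus strand), whose protein is tethered to the cytoskeleton until stress frees it, was at 4.47, 0.441 and 3.78 CPM in NC and 1.55, 1.5 and 2.24 CPM in ASO. NC replicate 2 was the lowest of all 6 libraries and the other NC libraries were the highest. Its log2 fold change of -0.72 (interval -2.32 to 0.89) did not pass (edgeR adjusted p = 0.426), but without NC replicate 2 it was -1.22 and passed (adjusted p = 0.0198).

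**Figure D2:**
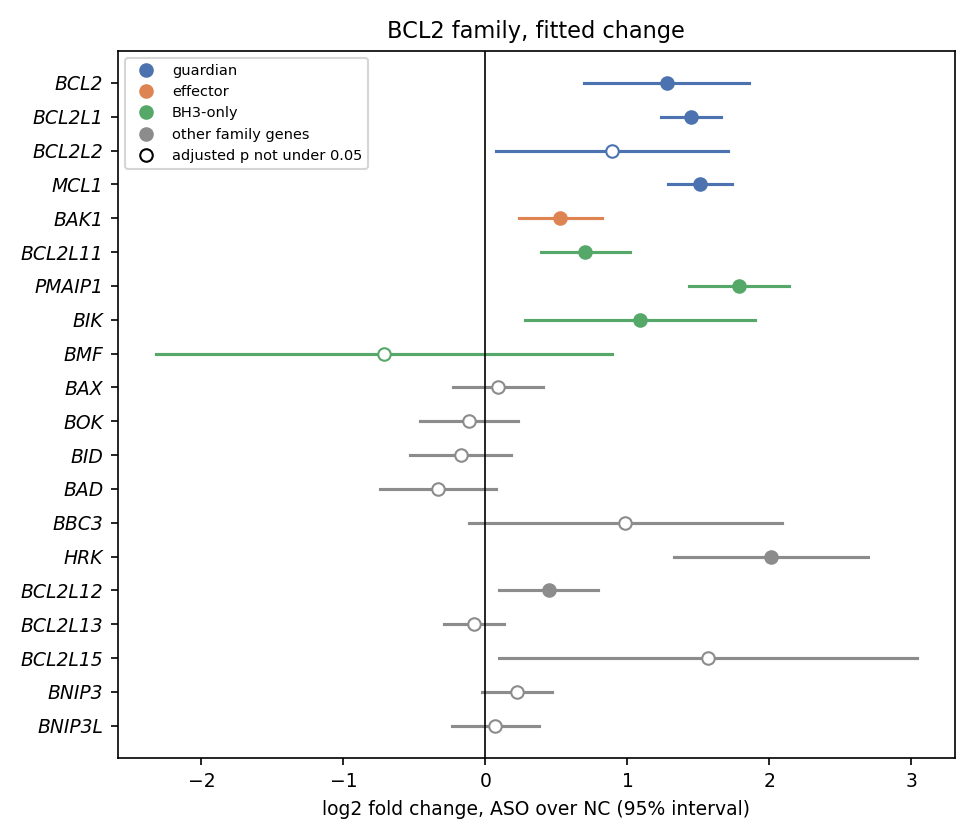
Fitted log2 fold change of ASO over NC with its 95% interval for 9 members, coloured by role, and 11 other family genes in grey. Open circles mark genes that did not pass the adjusted p threshold of 0.05. PMAIP1 (1.78), MCL1 (1.51) and BCL2L1 (1.44) are the members farthest to the right, and BMF has the widest interval.

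Levels of different genes can be set side by side only per length. For this, CPM was divided by the kilobases of merged exons in GENCODE release 29 (RPKM). The lengths are approximate, since the annotation behind the deposited counts is not given and its MCL1 model is longer than that of GENCODE. In NC the order from high to low was MCL1 (84.4 ± 6.22 RPKM, SD, n = 3), BAK1 (25.6 ± 1.89), BCL2L1 (21.2 ± 0.73), PMAIP1 (7.32 ± 0.52), BIK (2.45 ± 0.81), BCL2L11 (2.25 ± 0.22), BCL2L2 (1.2 ± 0.2), BMF (0.53 ± 0.40), BCL2 (0.28 ± 0.04) and BCL2A1 at 0. The libraries of neighbours in this order overlapped for BIK with BCL2L11 and for BMF with BCL2, so these pairs cannot be ordered. In ASO, BCL2L1 (57.6 ± 4.32 RPKM) stood above BAK1 (36.9 ± 4.94), and BCL2 (0.67 ± 0.19) above BMF (0.32 ± 0.08). BIK (5.21 ± 1.79), BCL2L11 (3.67 ± 0.23) and BCL2L2 (2.22 ± 1.17) overlapped with their neighbours there. With the longest transcript as the length, BCL2L1 came before BAK1 and BCL2L11 before BIK in NC. MCL1 remained the highest and PMAIP1 the highest BH3-only gene by either length.

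Summed over the 5 guardians, the length-scaled level was 107 ± 5.93 RPKM in NC and 300.7 ± 18.6 in ASO (SD, n = 3). MCL1 made up 78.8% ± 1.56 of that sum in NC and 79.8% ± 2.67 in ASO. The 4 BH3-only genes summed to 12.6 ± 0.88 RPKM in NC and 34.4 ± 2.80 in ASO. PMAIP1 supplied 58.5% ± 5.86 of that sum in NC and 72.9% ± 6.75 in ASO. The ratio of the guardian sum to the BH3-only sum was 8.04, 9.04 and 8.55 for the NC replicates, compared with 9.02, 8.60 and 8.64 for ASO. The groups overlapped in this ratio, although both sums were higher in every ASO library. MCL1 and PMAIP1 dominate these sums, which leave out BH3-only genes outside the 10.

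Ratios of binding partners within a library do not depend on scaling between libraries. The log2 ratio of MCL1 to PMAIP1 counts was 4.56, 4.48 and 4.45 in NC and 4.37, 4.12 and 4.2 in ASO. It was lower in all 3 ASO libraries, with means 0.26 apart on the log2 scale. The 4 ratios of MCL1 and BCL2L1 to BAK1 and BCL2L11 went the other way, and BCL2A1 to PMAIP1 has no value, since BCL2A1 was at 0 in 4 libraries. MCL1 to BAK1 was 2.69, 2.92 and 2.50 in NC and 3.46, 4.08 and 3.53 in ASO. BCL2L1 to BAK1 was 0.33, 0.39 and 0.21 in NC and 1.18, 1.34 and 1.17 in ASO. Both guardians thus stood higher relative to the effector in every ASO library. BCL2L1 to BCL2L11 had a mean of 2.23 ± 0.12 in NC and 2.97 ± 0.19 in ASO, and MCL1 to BCL2L11 a mean of 4.62 ± 0.24 and 5.42 ± 0.12 (SD, n = 3). These ratios are descriptions of counts and were not tested.

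**Figure D3:**
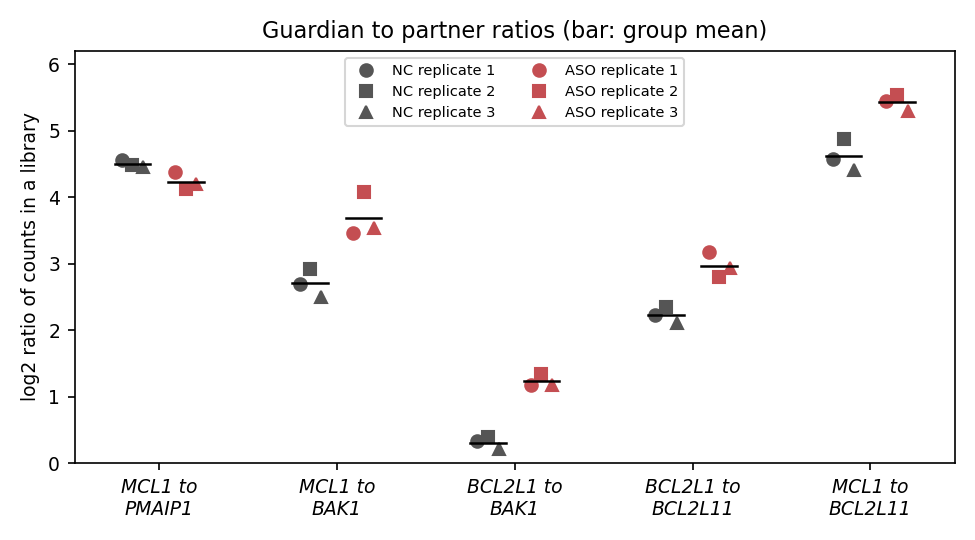
Log2 ratio of the counts of 2 binding partners within each library, with grey symbols for NC, red symbols for ASO and bars at group means. MCL1 to PMAIP1 is lower in ASO (mean 4.23 against 4.50 in NC), and the other 4 ratios are higher in ASO, each without overlap.

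Among the family genes outside the 10, HRK and BCL2L12 passed the test. Of 13 such genes, 11 were tested, 2 rose, 0 fell and 9 did not pass, where 26.8% of all genes tested passed as higher and 19.1% as lower. Their median log2 fold change was 0.09, against 0.01 for all genes tested. None was lower at an unadjusted p under 0.05 in edgeR (0 genes) or by DESeq2 or limma-voom (0 each). HRK, a BH3-only gene best known from neurons, was at 2.70, 3.10 and 1.51 CPM in NC and 10.4, 11.0 and 8.08 CPM in ASO. Its groups did not overlap, and it rose 4.03-fold (edgeR adjusted p = 0.00121). BCL2L12 rose 1.36-fold (edgeR adjusted p = 0.043), a call lost without any 1 library other than ASO replicate 2 (adjusted p = 0.0707 to 0.136). It overlaps IRF3 (34.79 to 48.35 CPM) on the opposite strand, and without a stated strand setting their reads cannot be told apart. BBC3, which encodes PUMA, a BH3-only protein induced by several kinds of stress, was at 5.00, 3.25 and 3.64 CPM in NC and 12.8, 7.86 and 2.92 CPM in ASO. ASO replicate 3 lay below all NC libraries, and the log2 fold change of 0.98 did not pass (edgeR adjusted p = 0.127), though it did without that library (1.38, adjusted p = 0.0152). Without ASO replicate 1 the log2 fold change of BBC3 was 0.44 (edgeR adjusted p = 0.444). BID, which links death receptors to the mitochondrion, averaged 37.7 ± 4.67 CPM in NC compared with 33.4 ± 5.40 CPM in ASO (SD, n = 3, edgeR adjusted p = 0.383).

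Genes of the mitochondrial membrane pores and of the steps after the membrane opens were lower or did not pass. Of 14 genes of the mitochondrial apoptosis machinery, 8 fell, 0 rose and 6 did not pass in edgeR, where 19.1% of all genes tested passed as lower and 26.8% as higher. Their median log2 fold change was -0.48. The unadjusted edgeR p was under 0.05 for 1 higher gene (CASP9), DESeq2 called 1 higher (XIAP, adjusted p = 0.0403) and limma-voom 0. CYCS, the gene of cytochrome c, which drives caspase activation once released, was at 305, 354 and 271 CPM in NC and 148, 191 and 157 CPM in ASO. Its groups did not overlap, and it fell 1.88-fold (edgeR adjusted p = 0.00127). VDAC1, the main pore of the outer membrane, fell 1.40-fold from 401 ± 23.5 to 286 ± 13.2 CPM (SD, n = 3, edgeR adjusted p = 0.00197). VDAC3, another such pore, fell 2.65-fold (edgeR adjusted p = 0.0037), with NC libraries spread from 47.9 to 104 CPM and ASO libraries at 26.3 to 31.1 CPM. VDAC2, a membrane partner of BAK, was named after its values were seen, and fell by 0.43 on the log2 scale (edgeR adjusted p = 0.0444). That call was lost without any 1 library other than ASO replicate 2 (adjusted p = 0.0771 to 0.156). ENDOG, also among the 8 and named in the same way, fell by 0.47 on the log2 scale (edgeR adjusted p = 0.0235). Its call was lost without NC replicate 1 (edgeR adjusted p = 0.0685), NC replicate 2 (0.0689) or ASO replicate 3 (0.0747).

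Of 12 genes for turnover, anchoring and kinase control of the family proteins, 3 rose, 3 fell and 6 did not pass. These shares are near those over all genes tested (26.8% higher and 19.1% lower), and the 12 genes had a median of -0.19 on the log2 scale. PIM3 and PIM1, kinases known to phosphorylate BAD, rose 2.59-fold and 1.59-fold (edgeR adjusted p = 0.000106 and 0.00428). DYNLL1, the dynein light chain that anchors BIM, fell 1.64-fold from 178 ± 2.96 to 108 ± 3.87 CPM (SD, n = 3, edgeR adjusted p = 0.000288). HUWE1, a ubiquitin ligase of MCL-1, rose 1.2-fold, and BTRC, another ubiquitin ligase gene, and TPT1, which encodes a partner of MCL-1, fell 1.62-fold and 1.24-fold. Each of these 3 calls was lost in 4 of the 6 fits that left out 1 library. Without NC replicate 1, NC replicate 2 or ASO replicate 3 all 3 were lost, with edgeR adjusted p of 0.0809, 0.059 and 0.0859 for HUWE1, 0.059, 0.0525 and 0.0635 for BTRC, and 0.0786, 0.0864 and 0.0669 for TPT1. Without ASO replicate 1 HUWE1 (0.08) and TPT1 (0.0624) were lost, and without NC replicate 3 BTRC (0.0512).

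Transcription factors known to act on family genes were mostly higher, and of the 14 described here 11 rose and 3 did not pass, where 26.8% of all genes tested rose. The median log2 fold change of these 14 was 1.4. JUN, an AP-1 subunit known for inducing BIM, ATF3, a factor of the stress response, and NFKB2, an NF-kB subunit, had the smallest p among those that rose. They rose 20.9-fold, 12.6-fold and 5.89-fold (edgeR adjusted p = 1.31e-06, 8.92e-07 and 2.65e-06). ATF4 and DDIT3 of the integrated stress response, named after their values were seen, rose by 0.68 and 2.13 on the log2 scale (edgeR adjusted p = 0.00102 and 6.17e-05). FOXO3, known for inducing BCL2L11 and named in the same way, rose 1.76-fold (edgeR adjusted p = 0.000818). FOXO1, also named in that way, rose by 1.41 on the log2 scale (edgeR adjusted p = 0.0285). Its call was lost without any 1 library other than NC replicate 1 (edgeR adjusted p = 0.0502 to 0.0897).

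**Figure D4:**
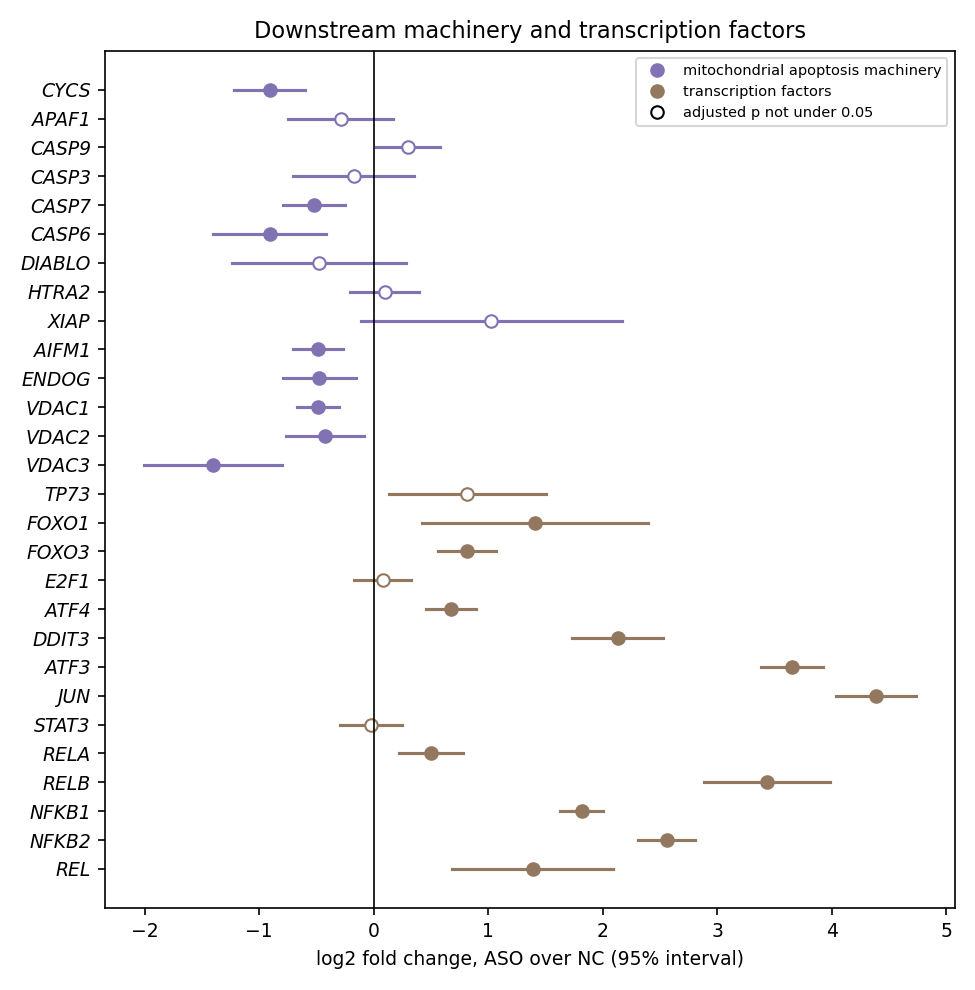
Fitted log2 fold change of ASO over NC with its 95% interval for 14 genes of the mitochondrial apoptosis machinery (purple) and 14 transcription factors (brown), with open circles for genes that did not pass the adjusted p threshold of 0.05. The 8 filled purple circles lie left of 0 and the 11 filled brown circles right of 0.

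Promoter sequence was available for 7 of the 10 members in the RefSeq table of GRCh38.p14, with 9 start sites in all, and not for MCL1, BCL2L2 and BIK. The 250 bases before each start were searched on both strands for the AP-1 motif TGANTCA, the core ACGTCA bound by ATF and CREB factors, and the NF-kB consensus. Among 35116 promoters of that length in the table, 6.57% held the AP-1 motif, 7.1% the ATF and CREB core and 5.21% the NF-kB consensus. The AP-1 motif was in 0 of the 9. The ATF and CREB core occurred once, in PMAIP1, starting at position -56 from the start site. The NF-kB consensus occurred once, at the upstream start of BMF, starting at position -20. Any link between a match and the change of a member was not tested. Both sequences are shown because they are the ones with a match, which is given in capitals, and they run 5′ to 3′ on the strand of the gene. PMAIP1 lies here at chr18:59899746-59899995 (plus strand) and BMF at chr15:40108880-40109129 (minus strand).
PMAIP1: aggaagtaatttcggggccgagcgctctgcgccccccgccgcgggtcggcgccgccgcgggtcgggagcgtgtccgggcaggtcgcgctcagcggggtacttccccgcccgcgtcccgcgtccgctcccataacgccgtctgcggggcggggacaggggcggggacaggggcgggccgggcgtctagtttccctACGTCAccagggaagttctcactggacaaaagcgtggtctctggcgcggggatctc
BMF: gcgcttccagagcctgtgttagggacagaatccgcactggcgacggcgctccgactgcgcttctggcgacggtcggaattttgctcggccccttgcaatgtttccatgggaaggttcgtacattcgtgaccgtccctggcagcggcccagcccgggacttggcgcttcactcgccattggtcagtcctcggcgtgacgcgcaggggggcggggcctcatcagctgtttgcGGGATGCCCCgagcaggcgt
A match describes these letters and does not show that a factor binds there.

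The genes whose levels followed the members most closely were found by Pearson correlation of log2 CPM over the 6 libraries among all genes tested outside the family. For BCL2L1, the guardian with the smallest p, they were GATA6 (r = 0.9996), CSRNP1 (0.9996) and SKI (0.9995), with log2 fold changes of 2.65, 3.61 and 1.28. For PMAIP1 they were GPCPD1 (0.9996), TRIP13 (0.9989) and SPAG1 (0.9985), with log2 fold changes of 2.08, 0.42 and 0.74. The 6 points share 2 groups that differ, and r was above 0.95 for 15.2% of genes with BCL2L1 and 11.1% with PMAIP1. The values are therefore descriptions.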

How the data were processed

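The authors deposited 1 table of estimated counts per gene for the 6 libraries, not scaled to depth. Per the submitters' processing notes, the tools included StringTie, STAR, FastQC and DESeq2 on build hg38. Their versions, the annotation release and the strand setting were not stated. Values were whole numbers, so rounding changed nothing. Libraries were grouped by their descriptions.

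All tests were run with edgeR 4.0.16 under R 4.3.3. The filter filterByExpr (minimum count 10, minimum total 15) kept 14062 genes and removed 5593. After TMM scaling, the 3 ASO and 3 NC libraries were tested against each other with the quasi-likelihood F-test (robust, no block). Interval bounds use the model's standard error and degrees of freedom. Promoters came from RefSeq (GRCh38.p14), and strands and exon lengths from GENCODE release 29. The members and all lists were chosen with earlier results of these data known, and 1 further gene of the transcription factor list is not reported here. Named were every member, BAX, BID and BBC3, for each list the 3 smallest p in each direction among genes past the threshold (all where 5 or fewer passed), and the 3 genes most like the called guardian and BH3-only gene with the smallest p. Alternatives were other scalings (RLE, upper quartile, column totals), 2 further filters (a mean of 10 counts, or none), limma-voom (limma 3.58.1), DESeq2 1.42.0, counts divided by 4, the replicate number as a block, and each library left out in turn.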

Additional observations from a re-analysis of the deposited data

How the results depend on the processing

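BCL2, BCL2L1, MCL1, BAK1, BCL2L11 and PMAIP1 passed as higher in the main analysis and under all 15 alternatives. The count of higher members was 7 under the scalings, filters, limma-voom and counts divided by 4, and 8 in DESeq2. Leaving out 1 library gave 6 to 8 higher and 0 to 1 lower members, the 1 lower being BMF without NC replicate 2. Over the 9 tested members, 127 of the alternative values kept their side of the threshold, 4 lost it (all BIK), 4 gained it (BCL2L2 and BMF) and 0 reversed. Leaving out 1 library gave 1 to 2 higher genes among the other family genes and 1 to 5 lower among turnover and anchoring genes. In the mitochondrial apoptosis machinery it gave 0 to 1 higher and 6 to 9 lower, and DESeq2 called 1 higher. Over all genes it gave 1755 to 3199 lower, where the main count was 2692 (1755 without NC replicate 1, 1764 without ASO replicate 3). The causes were not tested. Replicate numbers are shared by both groups, but the correlations of same-numbered libraries' deviations were 0.03, 0.13 and 0, and libraries did not each correlate best with their own number. With a replicate block, 8 members rose (BCL2L2 added, adjusted p = 0.0315), with 3924 higher and 3494 lower genes over all. Depth limits BCL2A1, which no library held above 12 counts.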

Other observations

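Of the other family genes that did not pass, 5 had the following mean CPM (SD, n = 3) and edgeR adjusted p. BOK, an effector relative of BAX and BAK, was at 27.0 ± 0.806 in NC and 24.9 ± 4.33 in ASO (adjusted p = 0.547). BAD, a BH3-only gene, was at 19.6 ± 2.24 and 15.6 ± 2.77 (adjusted p = 0.156), and it overlaps GPR137 on the opposite strand, so that without a stated strand setting their reads cannot be told apart. BCL2L13 was at 75.2 ± 3.59 and 71.1 ± 2.66 (adjusted p = 0.489). BNIP3 and BNIP3L, known as receptors for the removal of mitochondria, were at 64.0 ± 5.76 and 42.0 ± 3.89 in NC and at 74.7 ± 5.04 and 44.1 ± 5.72 in ASO (adjusted p = 0.123 and 0.695).

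Among the family genes outside the 10, those with the fewest counts were BCL2L14, BCL2L10 and BCL2L15. BCL2L14 had 0 counts in all 3 NC libraries and 0, 2 and 2 counts in ASO. BCL2L10, a guardian known from the ovary, had 0, 0 and 4 counts in NC and 4, 27 and 10 in ASO, with 1 library over the limit of 12. BCL2L15 had 9, 8 and 5 counts in NC and 23, 12 and 29 in ASO, and did not pass (edgeR adjusted p = 0.0769).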
